A study of Mus musculus with 12 samples.

Results

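MHC class I and proteasome genes were followed in hippocampal microglia of 28-day-old mice that had, or had not, been separated briefly from their mothers. The members were fixed by gene name: class I chains, peptide-loading factors and proteasome subunits of the immune panel. The rule lists 10 genes, of which 9 were found among the 545 endogenous genes of the count table (B2m, H2-K1, Tap1, Tapbp, Psmb5, Psmb7, Psmb9, Psmb10 and Psmd7), while H2-T23 was not analysed here. Of these 9, 8 lay above background in all 12 samples, and Psmb5 did so in none. All mice were males of the strain labelled Balbc, with no transgene or other manipulation named. The control group held 6 samples, and the brief daily separation (BDS) group held 6 from pups parted from the mother for 15 min a day on postnatal days 1 to 21. Every sample came from a different litter, per the series' design text, so the replicates are biological. The cells are microglia, macrophages that live in brain tissue, enriched on a Percoll gradient and then sorted; the markers of the sort are not given in the sources used here. RNA (2 ng) was amplified in 5 rounds of PCR and counted with NanoString nCounter probes, which tally a fluorescent barcode per transcript without sequencing.

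Class I molecules show fragments of a cell's own proteins at its surface, where CD8+ T cells and natural killer cells read them. A polymorphic heavy chain, such as the product of H2-K1, pairs with the invariant light chain β2-microglobulin (B2m). The proteasome cuts proteins into peptides, the TAP transporter (whose first subunit is Tap1) moves these into the endoplasmic reticulum, and tapasin (Tapbp) holds empty class I molecules beside the transporter. Interferons and NF-kB are known to raise much of this machinery. Psmb9 and Psmb10 encode catalytic subunits of the immunoproteasome, and Psmb10 takes the place of the constitutive subunit Psmb7. Psmb5 encodes another constitutive catalytic subunit, and Psmd7 a non-catalytic subunit of the regulatory particle that admits substrates. In the healthy brain microglia carry little surface class I, and the level rises when they are activated.

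Promoter sequences are shown for the class I chains, because the heavy chain H2-K1 had the largest difference among the 8 genes above background, and for the space shared by Psmb9 and Tap1. They come from RefSeq (GRCm38.p6, a C57BL/6J assembly), whereas the mice were labelled Balbc, a strain that carries another allele of H2-K1; how well the panel's probe matches that allele was not tested. Capitals mark matches, on either strand, to the core of the interferon-stimulated response element (GAAA, any 2 bases, GAAA) or to an NF-kB motif (GGG, any 2 bases, TT, any base, CC). Before H2-K1 only the NF-kB letters matched. Before B2m the core and the NF-kB letters stand 3 bases apart without overlap, and the space between Psmb9 and Tap1 matched neither pattern. The first runs from 200 bases to 1 base before the H2-K1 start (chr17:34000348-34000547, minus strand), the next covers the same stretch before B2m (chr2:122147487-122147686, plus strand), and the last is the whole space between the divergent starts of Psmb9 and Tap1 (chr17:34187331-34187555, written on the Tap1 strand).
H2-K1: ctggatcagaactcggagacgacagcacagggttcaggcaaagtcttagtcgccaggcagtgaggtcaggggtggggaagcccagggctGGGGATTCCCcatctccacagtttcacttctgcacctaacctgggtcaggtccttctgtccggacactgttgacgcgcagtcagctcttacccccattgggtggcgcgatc
B2m: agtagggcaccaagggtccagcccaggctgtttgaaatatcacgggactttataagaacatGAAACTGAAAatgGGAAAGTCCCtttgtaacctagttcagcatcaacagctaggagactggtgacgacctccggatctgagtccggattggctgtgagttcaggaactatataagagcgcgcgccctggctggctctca
Psmb9-Tap1 space: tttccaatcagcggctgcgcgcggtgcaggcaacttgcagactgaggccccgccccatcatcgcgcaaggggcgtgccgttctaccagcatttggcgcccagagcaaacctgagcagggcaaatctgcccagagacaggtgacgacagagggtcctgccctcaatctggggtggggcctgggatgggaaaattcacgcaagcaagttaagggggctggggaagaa

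Promoter windows of 250 bases before to 50 after the start were found for 7 of the 9 genes; Psmb7 and Psmd7 had no entry. The NF-kB letters stood before B2m and H2-K1 (2 of 7 genes), against 4.79% of 32851 windows of the same length. The interferon-stimulated core stood before B2m alone (1 of 7, against 3.44%), and TTCNNNGAA, a form of the interferon gamma activated site, before none (8.3% of all windows). The starts of Psmb9 and Tap1 lie 225 bases apart on opposite strands, so their promoter windows share 275 bases. A match to letters is a description and not a shown binding site. A missing match does not show that a site is absent, as variants of these letters were not searched.

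Total counts were 893936 to 1409376 in controls and 641756 to 1171355 in BDS samples. Values below are counts divided by a factor from 6 housekeeping genes, called housekeeping-scaled counts; probes differ in efficiency, so levels of different genes are not ranked. The smallest housekeeping factors were those of BDS 21, BDS 25 and BDS 55 (0.59 to 0.83, against 0.85 to 1.42 in the other 9 samples) and Rpl19 to Polr2a count ratios of 0.47 to 0.79, against 0.11 to 0.27. The microglial markers of the panel (8 of 9 listed, all above background) summed to 331622 to 382159 in those 3 samples and to 281962 to 325081 in the other 9. Csf1r and Ctss had the largest counts in that sum (control means 87685 and 90007), and not every marker was higher in those 3. For Itgam the log2 fold change (BDS over control) was -0.135 with all samples and -0.0060 without those 3. For Cx3cr1 it was -0.112 and -0.080, while for each other marker it was lower without those 3. Markers of neurons, astrocytes and oligodendrocytes (3 of 5 on the panel) summed to 4242 to 5152 in those 3 and 5006 to 7388 in the other 9. For endothelial markers (3 of 7) these sums were 959 to 1041 and 989 to 1396, for B cell markers (7 of 8) 3989 to 4495 and 3154 to 3765, and for monocyte and border macrophage markers (5 of 7) 287 to 339 and 319 to 534. Natural killer cell markers other than Prf1 (9 on the panel) summed to 270 to 297 in those 3 and 205 to 265 in the other 9, and T cell markers (13 of 15) to 4943 to 6006 and 5077 to 6517. Of those 9 natural killer markers only Klrk1 and Klrd1 were above background in all 12 samples. Counts near background give higher scaled values when divided by the small factors of those 3 samples. The part of this in the natural killer sum was not tested. In the neural, endothelial, B cell, monocyte and T cell sums a single gene held most of the counts. By control mean these genes were App (6240), Pecam1 (1046), Blnk (3178), Ccr2 (389) and Il7r (5268). These sums therefore do not show a shift of a whole marker set. Of the T cell markers 6 passed the background filter, among them Il7r, Cd27 and Cd5 in all 12 samples, while Cd3d, Cd3e, Cd247, Zap70 and Cd28 were above background in none. Of the B cell markers 3 passed it (Blnk and Cd79b in all 12 samples, Cd79a in 6), and Pax5 and Cr2 were above background in none. Control 44 also stood apart, as described with H2-K1. Results that rest on these 4 samples are given with and without them. In sorted bulk samples, fewer cells of a type and less RNA per cell cannot be told apart.

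The comparison asked whether the class I pathway of microglia differed after early separation. None of the 8 genes above background passed the test of a difference. Their log2 fold changes (BDS over control) ran from -0.50 for H2-K1 to 0.15 for Psmb10. The smallest adjusted p among them was 0.495 (edgeR quasi-likelihood test, Benjamini-Hochberg over 357 genes). At an unadjusted p under 0.05 there were 0 of the 8, against 12.3% of the 357 genes tested (11.5% lower and 0.84% higher in BDS). No gene of the panel passed the adjusted threshold. At the unadjusted one limma also called 0 of the 8, where it called 43 of the 357 genes lower and 7 higher (log2 of scaled counts plus 1). DESeq2 with its own size factors called 0 of the 8, where it called 14 of the 357 lower and 13 higher. With the housekeeping factors DESeq2 gave no p for H2-K1 and called 0 of the other 7, where it called 43 of the 357 lower and 3 higher. The groups overlapped for all 8 genes, where 1.12% of the panel did not overlap. Without control 44 there were again 0 of the 8, against 9.66% of 352 genes, and without BDS 21, BDS 25 and BDS 55 there were 0, against 5.52% of 362. The median log2 fold change of the 8 genes was 0.045, beside -0.10 for all 357. Of the 8, 3 were below 0, where 66.1% of the panel was, and 7 lay above the panel median. Without BDS 21, BDS 25 and BDS 55 the median of the 8 was -0.11, beside -0.087 for the panel, and 2 of the 8 lay above it. With TMM scaling, which sets the panel median near 0, the median of the 8 was 0.14 and 0 of them were at an unadjusted p under 0.05, against 8.96%. Leaving H2-K1 aside, the 95% intervals of the other 7 genes reached from -0.35 to 0.43 on the log2 scale with 6 samples a group. These bounds are the outermost ends of the 7 intervals and not a limit of detection.

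**Figure D1:**
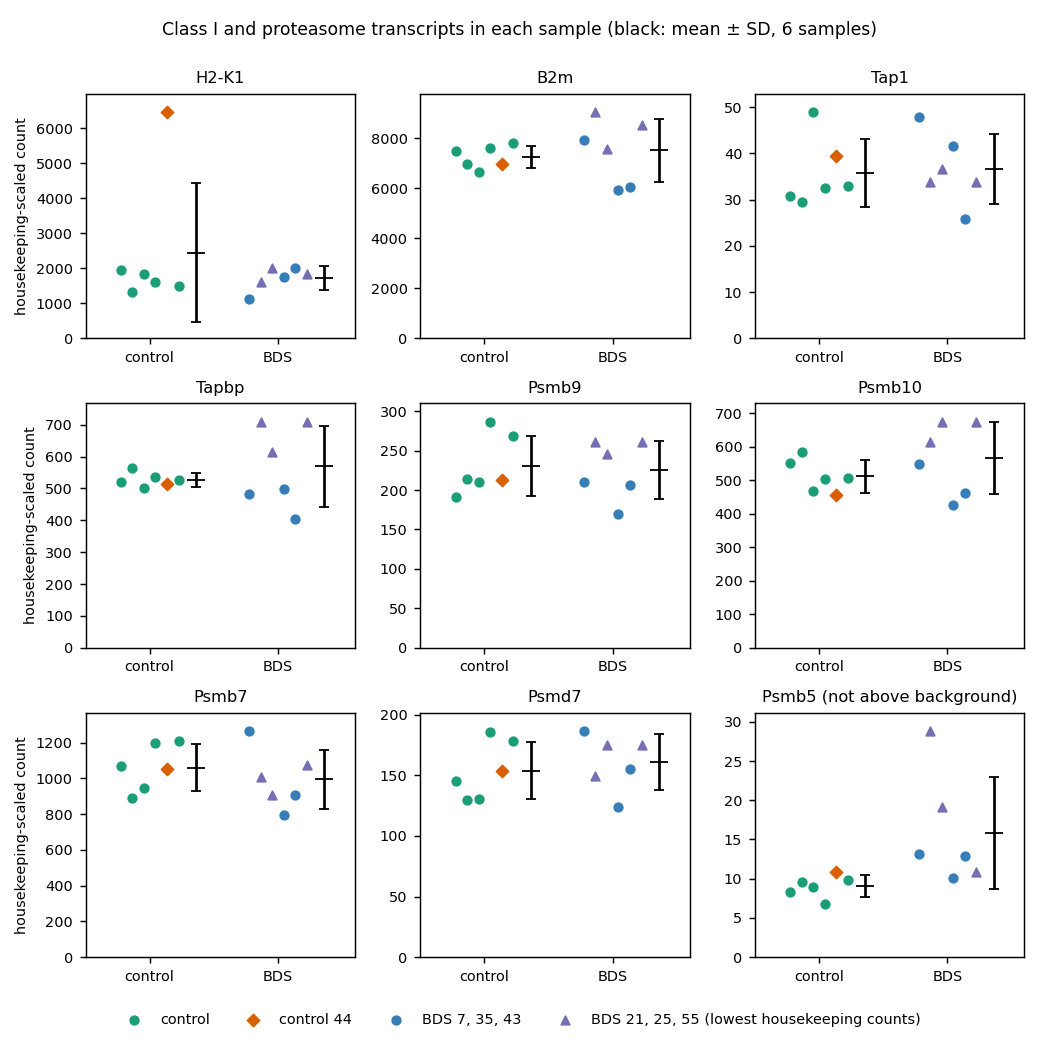
Housekeeping-scaled count (y axis, linear, from 0) of each of the 9 genes in the 6 control and 6 BDS samples, with the mean ± SD in black; orange marks control 44 and purple triangles mark BDS 21, BDS 25 and BDS 55. H2-K1 stands at 6455 in control 44 and between 1120 and 2018 in every other sample, while for Tapbp and Psmb10 the 3 triangles lie above all 9 other samples.

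H2-K1, the class I heavy chain, had the largest difference of the group, and that difference rested on control 44. Controls ran from 1309 (control 9) over a median of 1724 to 6455 housekeeping-scaled counts (control 44), and BDS samples from 1120 (BDS 7) over 1806 to 2018 (BDS 43). The other 5 controls, at 1639 ± 255 (SD, n = 5), lay within the range of the BDS samples, which had 1730 ± 336 (SD, n = 6). With all samples the log2 fold change was -0.50 ± 0.34 (SE; edgeR, adjusted p = 0.495), with a 95% interval of -1.23 to 0.23. Without control 44 it was 0.078 ± 0.15 (adjusted p = 0.822). On log values, where limma was used, the difference with all samples was -0.27 (adjusted p = 0.72). In the authors' deposited table the fold of H2-K1 is 0.72, the farthest from 1 among the 8 genes above background, with a p of 0.4189. The coefficient of variation of H2-K1 among controls was 81.1%, the 10th highest of 357 genes, and 15.5% without control 44.

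The excess in control 44 was not shared by the other 7 genes. H2-K1 was there 3.94 times the mean of the other 5 controls. B2m, the light chain, stood at 0.956 times that mean, Tapbp at 0.968, Psmb7 at 0.993, Psmd7 at 0.995, Psmb9 at 0.907 and Psmb10 at 0.875. Tap1 was at 1.13 times the mean, with raw counts of 40 against 26 to 49 in the other controls. Across all 357 genes, 10 were at least 2-fold higher in control 44 than in each of the 11 other samples. They are H2-K1, Nfkbia (an NF-kB inhibitor and itself a target of NF-kB), the chemokines Ccl3 and Ccl4, the cytokine Tnf, the kinase Ikbke, the receptors Ccrl2 and Gpr44, the perforin gene Prf1 and Cd40lg; they were singled out after their values were seen. No other sample had a gene that high above all the rest. Prf1, a marker of natural killer cells, was at 336 in control 44 and at 53.4 to 109 in the other samples. The remaining 9 natural killer markers on the panel summed to 242 in control 44 and 205 to 297 elsewhere, and of these Gzmb, Eomes and Klra4 were above background in no sample. The microglial marker sum of control 44 (304222) and its T cell marker sum (5453) lay within the range of the other controls. Its B cell marker sum was 3625, against 3218 to 3503 in the other controls, with Cd79a at 52.4, against 15.1 to 31.5 in the 11 other samples. Its sum of monocyte and border macrophage markers was 461, against 319 to 534 in the other controls. Within that sum S100a9, a gene of neutrophils and monocytes, was at 97.8 in control 44, the 1 sample where it was above background, and at 5.72 to 15.7 in the others; Cd163 was above background in no sample. The part of these cells in the H2-K1 value was not tested.

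**Figure D2:**
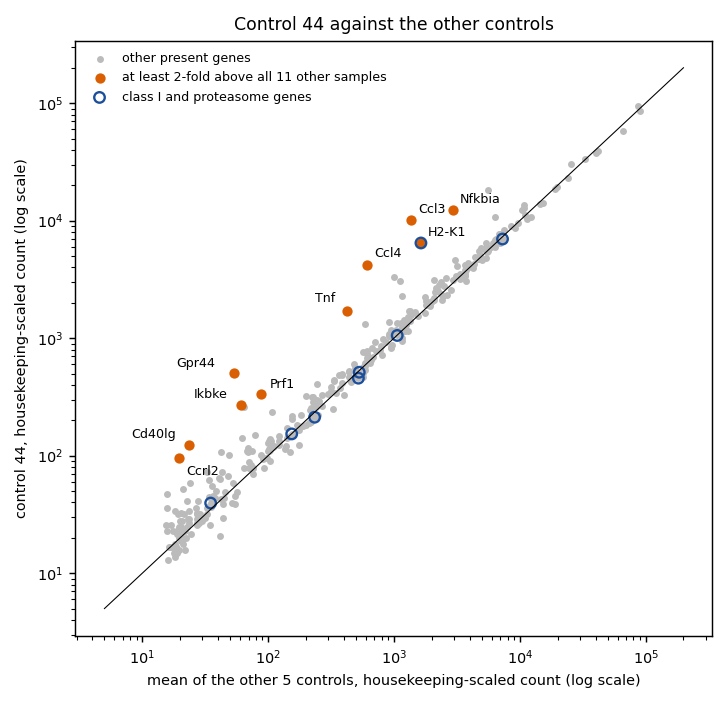
Housekeeping-scaled count of each of the 357 genes above background in control 44 (y axis) against the mean of the other 5 controls (x axis), on log scales, with the line of equal values. Orange points are the 10 genes at least 2-fold above all 11 other samples; of the 8 circled class I and proteasome genes, H2-K1 (6455 against 1639) is among them and the other 7 lie near the line.

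The gene whose pattern was most like that of H2-K1 was Nfkbia. Likeness was measured as Pearson's r of log2 values over the 12 samples after the group mean was subtracted, against 356 genes. For Nfkbia r was 0.97 (Spearman's rho 0.92). Nfkbia stood at 2264 to 3590 housekeeping-scaled counts in 5 controls, at 12343 in control 44 and at 1901 to 5582 in the BDS samples. The lowest BDS sample for Nfkbia, BDS 7, was also the lowest for H2-K1, and BDS 43 was the highest of its group for Nfkbia. For H2-K1 BDS 43 and BDS 25 were nearly equal (2018 and 2017), and with TMM scaling BDS 25 was the higher (2210 against 2142). Nfkbia still ranked first without control 44, with r = 0.90 over 11 samples (rho 0.82), and r was 0.98 over 9 samples without BDS 21, BDS 25 and BDS 55. The next gene, Ccl4, had r = 0.91, but 0.66 without control 44 (rho 0.355), where it ranked 8th. These values share the housekeeping factor and the genes were picked as the highest of many, so they carry no p-value; with TMM scaling r was 0.97 for Nfkbia and 0.90 for Ccl4.

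B2m, the light chain of every class I molecule, did not pass the test, and its values ranged more widely in BDS samples than in controls. Controls ran from 6658 (control 13) over a median of 7223 to 7809 (control 54), a coefficient of variation of 6.15% where the median of all genes was 14.8%. BDS samples ran from 5945 (BDS 35) over 7741 to 9037 (BDS 21), a coefficient of 16.9% against a panel median of 19.4%. Thus 3 BDS samples lay above the highest control, BDS 35 and BDS 43 lay below the lowest, and the means differed little, at 7242 ± 445 and 7508 ± 1271 (SD, n = 6). The log2 fold change was 0.052 ± 0.10 (SE; edgeR, adjusted p = 0.811), and -0.13 without BDS 21, BDS 25 and BDS 55. The genes most like B2m were Ly86 (r = 0.95), which encodes the MD-1 partner of a Toll-like receptor homologue, and Fcer1g (r = 0.93), the common gamma chain of Fc receptors, over 12 samples. Without BDS 21, BDS 25 and BDS 55 these values were 0.89 and 0.90, and without control 44 both were 0.95.

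Tapbp, which encodes tapasin, had similar values in all controls and a wider spread, near the panel median, in BDS samples. Its 6 controls lay close together, from 501 (control 13) over a median of 524 to 565 (control 9). Their coefficient of variation was 4.14%, beside a panel median of 14.8%. In BDS samples the coefficient was 22.4%, the 140th highest of 357 genes, beside a panel median of 19.4%. BDS 21, BDS 25 and BDS 55 stood at 709, 614 and 710, above every control, and BDS 7, BDS 35 and BDS 43 at 482, 498 and 404, below every control, so no BDS sample fell inside the control range. With TMM scaling BDS 35, at 536, lay inside the control range of 468 to 597, and BDS 21, BDS 25 and BDS 55 stayed above it at 673 to 755. The group means, 527 ± 21.8 and 569 ± 128 (SD, n = 6), gave a log2 fold change of 0.11 ± 0.13 (SE; edgeR, adjusted p = 0.685). It turned to -0.19 ± 0.095 without the 3 samples of low housekeeping counts (adjusted p = 0.891). The differences in spread of Tapbp and B2m were not tested. Genes whose values in those 3 samples all exceeded every other sample made up 4.2% of the panel (15 of 357), and Tapbp and Psmb10 were among them; with TMM scaling there were 31 such genes, B2m and Tapbp among them. The higher microglial marker sums and Rpl19 to Polr2a ratios of these 3 samples go with these values, and their part was not tested.

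Tap1, the transporter subunit, was measured near the detection limit. Its raw counts were 26 to 49 in controls and 20 to 51 in BDS samples, where a sample's background limit lay between 15.3 and 21.8. In BDS 21 and BDS 25 it stood only 1.10 and 1.15 times above that limit. Scaled counts ran from 29.6 over 32.7 to 48.9 in controls and from 25.7 over 35.3 to 47.8 in BDS samples, so the groups overlapped almost fully. The log2 fold change was 0.038 ± 0.18 (SE; edgeR, adjusted p = 0.919), the largest standard error of the group after H2-K1.

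The immunoproteasome subunits did not pass the test either. Psmb10 ran from 457 (control 44) over 504 to 584 (control 9) in controls and from 427 (BDS 35) over 580 to 675 (BDS 55) in BDS samples. BDS 21, BDS 25 and BDS 55 lay above all controls, at 612 to 675, while BDS 7, BDS 35 and BDS 43 lay at 427 to 548. Its log2 fold change of 0.15 ± 0.13 (SE; edgeR, adjusted p = 0.602) turned to -0.094 ± 0.12 without those 3 samples. Psmb9 ran from 191 over 213 to 287 in controls and from 170 over 228 to 261 in BDS samples, with a log2 fold change of -0.038 ± 0.14 (edgeR, adjusted p = 0.891). Without those 3 samples it was -0.24 ± 0.16 (adjusted p = 0.896). The genes most like Psmb10 over the 12 samples were Trem2 (r = 0.90), a microglial lipid receptor, and Tyrobp (r = 0.86), the adaptor through which that receptor signals; without BDS 21, BDS 25 and BDS 55 these values were 0.82 and 0.58. For Psmb9 they were Ly86 (r = 0.83) and the tetraspanin gene Cd9 (r = 0.81). Leaving out the same 3 BDS samples gave 0.76 and 0.75, and leaving out control 44 gave 0.82 and 0.83.

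**Figure D3:**
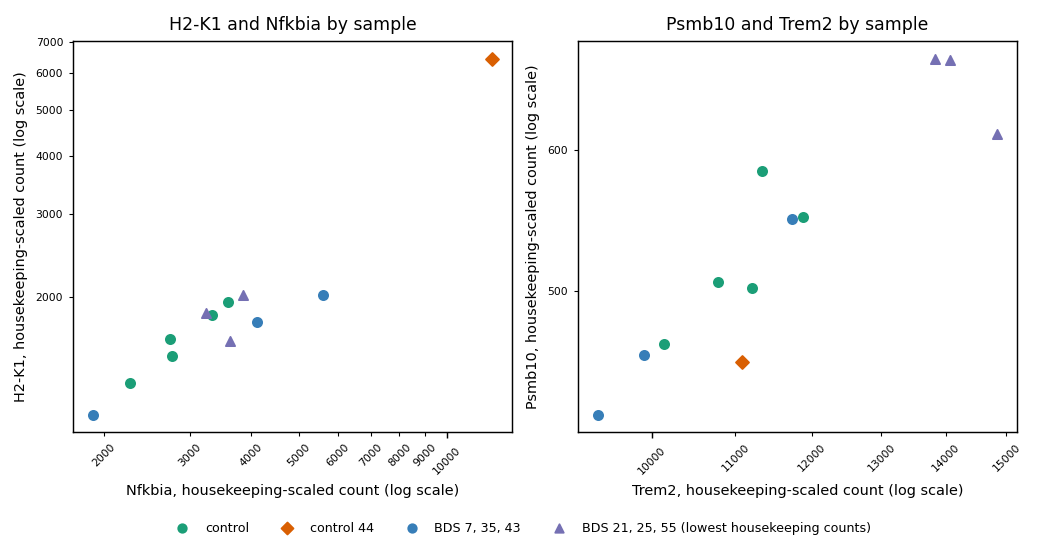
Housekeeping-scaled counts by sample on log scales: H2-K1 against Nfkbia (left) and Psmb10 against Trem2 (right), with control 44 in orange and BDS 21, BDS 25 and BDS 55 as purple triangles. H2-K1 goes with Nfkbia also among the 11 samples other than control 44 (r = 0.90 after the group means are subtracted), and the 3 triangles are highest for both Psmb10 and Trem2.

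Of the constitutive genes, Psmb7, the catalytic subunit that Psmb10 replaces, ran from 888 (control 9) over 1062 to 1209 (control 54) in controls and from 796 (BDS 35) over 959 to 1265 (BDS 7) in BDS samples. The groups overlapped, and 4 of 6 BDS samples lay below the control mean (log2 fold change -0.094 ± 0.12, SE; edgeR, adjusted p = 0.695). Psmd7, of the regulatory particle, had 154 ± 23.7 in controls and 161 ± 22.9 in BDS samples (SD, n = 6), a log2 fold change of 0.061 ± 0.14 (edgeR, adjusted p = 0.824). BDS 21, BDS 25 and BDS 55 did not stand out for these 2 genes, at 909 to 1073 for Psmb7 and 149 to 175 for Psmd7.

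Psmb5, a constitutive catalytic subunit, was above background in 0 of 12 samples, so it entered no test of the filtered panel. Its raw counts were 7 to 14 in controls and 9 to 17 in BDS samples, below each sample's limit of 15.3 to 21.8. After scaling, BDS 21 and BDS 25 stood at 28.8 and 19.1, as their counts of 17 and 12 were divided by the smallest factors; controls were at 6.79 to 10.9. The authors' deposited table gives Psmb5 as above background in 17% of samples, with a fold of 1.76 and a p of 0.0397. With no filter the log2 fold change was 0.72 ± 0.26 (SE; edgeR, adjusted p = 0.373 over 545 genes). At this depth the probe gave no level that can be told from background.

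**Figure D4:**
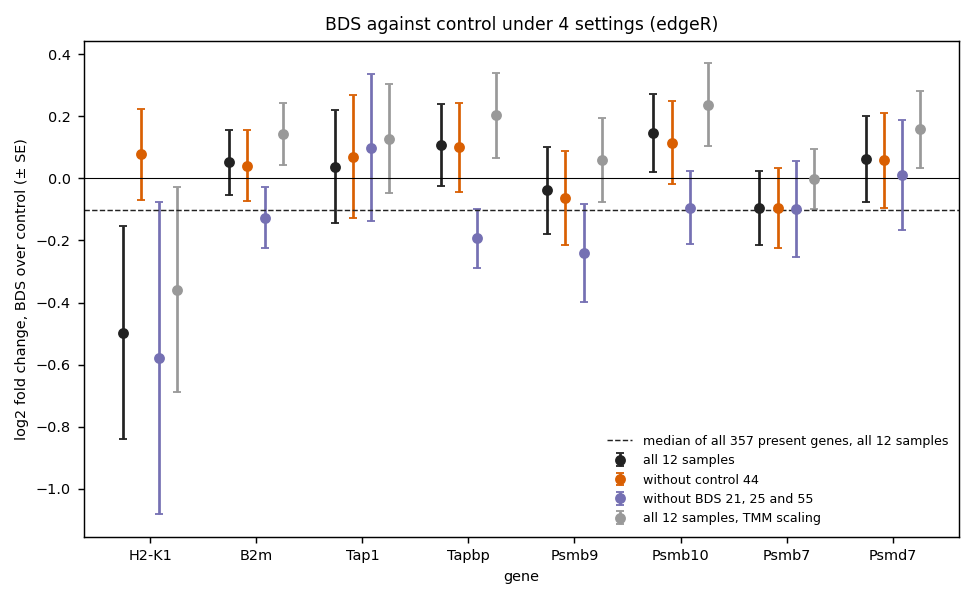
Log2 fold change (BDS over control, y axis) with its standard error for the 8 genes above background, with all samples, without control 44, without BDS 21, BDS 25 and BDS 55, and with TMM scaling; the dashed line is the median of all 357 genes (-0.10). H2-K1 moves from -0.50 to 0.078 without control 44, and B2m, Tapbp and Psmb10 fall below 0 without the 3 BDS samples.

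Ratios of paired members within a sample do not depend on any scaling, and 4 were tested with exact permutation tests (two-sided; the smallest possible p is 0.00216). The log2 ratio of Psmb10 to Psmb7 was -1.05 ± 0.25 in controls and -0.82 ± 0.27 in BDS samples (SD, n = 6), a difference of 0.23 (exact permutation p = 0.169; adjusted p = 0.675 over the 4 ratios). By sample it ran from -1.26 over -1.11 to -0.61 in controls. BDS 21, BDS 25 and BDS 55 stood at -0.72 to -0.43 and the other 3 BDS samples at -1.21 to -0.90, so the group was split without overlap. Without the former 3 the difference was 0.021 (exact permutation p = 0.869; the smallest possible p is 0.0119). Without control 9, the highest control, it was 0.32 (exact permutation p = 0.0346, adjusted p = 0.139). The heavy to light chain ratio, H2-K1 over B2m, dropped by 0.30 in BDS on the log2 scale with all samples and differed by 0.039 the other way without control 44 (exact permutation p = 0.569 and 0.87, n = 12 and 11). Control 44 had -0.11, and the other 5 controls -2.41 to -1.87. Tap1 over Tapbp differed by -0.049 and Tap1 over Psmb9, the pair that shares a promoter region, by 0.064 (exact permutation p = 0.829 and 0.784); the 4 adjusted values were 0.675 to 0.829.

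Further genes of the pathway and its regulators were read from fixed lists. Of 27 further class I genes listed, 5 were on the panel and 4 above background: Psmc2 (an ATPase subunit of the regulatory particle), the class I-like Cd1d1 and Mr1, and Fcgrt (the neonatal Fc receptor chain). None of the 4 had an unadjusted p under 0.05 (edgeR), where 12.3% of the panel did. The log2 fold changes of the 4 ran from -0.17 for Mr1 to 0.14 for Cd1d1. H2-Q10, another class I heavy chain, was above background in no sample. Among regulators that act on class I genes, the unadjusted threshold of 0.05 was passed downwards by 3 of 17 and upwards by 0, where 11.5% of the panel passed downwards. Among them were Nfkb1, an NF-kB subunit gene, with a log2 fold change of -0.25 ± 0.10 (SE; edgeR, adjusted p = 0.337), and the interferon receptor chain Ifnar1, with -0.19 ± 0.089 (adjusted p = 0.38). Without BDS 21, BDS 25 and BDS 55 these were -0.081 and -0.038 (unadjusted p = 0.323 and 0.537, edgeR). Of the 17 genes, 2 then passed the unadjusted threshold, where 5.52% of 362 genes did, and neither was among the 3 above. With TMM scaling 1 of the 17 passed it, where 8.96% of the panel did. The median of these 17 genes was -0.10, equal to that of the panel. The inducers Ifng and Ifnb1 were above background in no sample.

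With all samples, interferon-induced genes outside the class I pathway had a lower median than the class I and proteasome genes. Of 8 such genes above background, 2 passed the unadjusted threshold downwards and 0 upwards, where 11.5% of the panel passed downwards. The median was -0.23, beside -0.10 for the panel. Ifit2 had a log2 fold change of -0.53 ± 0.22 (SE; edgeR, adjusted p = 0.36), and Ddx58, an RNA sensor, -0.28 ± 0.12 (adjusted p = 0.38). Without BDS 21, BDS 25 and BDS 55 these were -0.32 and -0.094, neither at an unadjusted p under 0.05 (edgeR, 0.275 and 0.359). Another gene of the list then passed that threshold (1 of the 8), where 5.52% of 362 genes did. The median of the list was then -0.15, close to the -0.11 of the class I and proteasome genes and beside -0.087 for the panel. With TMM scaling 0 of the 8 passed that threshold, where 8.96% of the panel did. Of 20 receptors of class I molecules on the panel, 8 were above background, with a median of -0.18 (-0.030 without control 44). At an unadjusted p under 0.05 there were 0 of these 8, against 12.3% of the panel (edgeR). The difference between these lists and the class I genes was not tested.

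**Figure D5:**
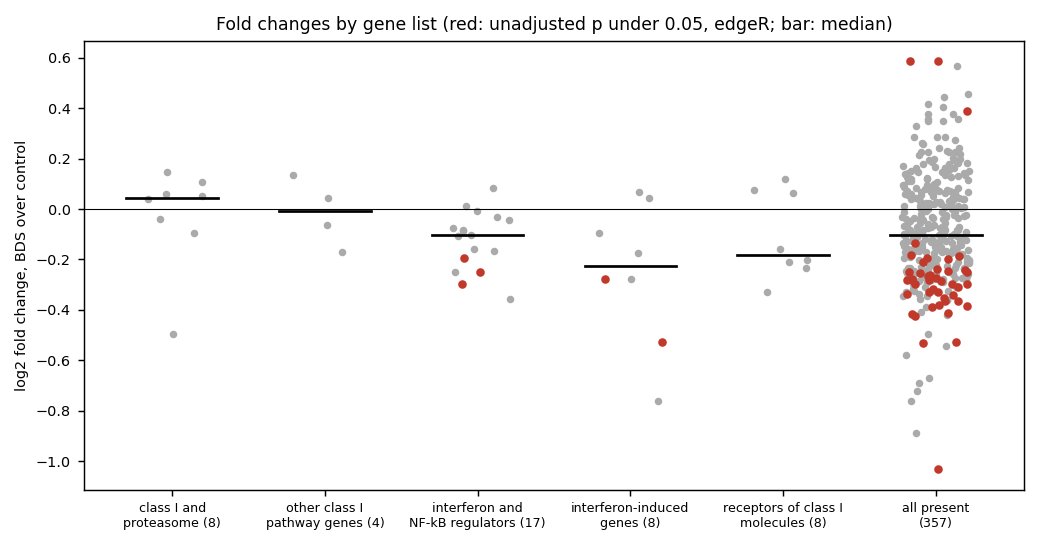
Log2 fold change (BDS over control, y axis) of each gene above background in the class I and proteasome group, in 4 lists of related genes and in the whole panel; red points have an unadjusted p under 0.05 (edgeR) and bars are medians. No class I or proteasome gene is red, and the medians run from 0.045 for that group to -0.23 for interferon-induced genes, beside -0.10 for all 357 genes.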

How the data were processed

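The analysis started from raw barcode counts, as the authors deposited them without normalization (573 probes: 545 endogenous, 14 housekeeping, 8 negative and 6 positive controls). The other deposited table holds values that the authors normalized and rounded, treated as scores and read only for comparison. Per the file headers it gives group means, a percent of samples over background, a fold (ratio) and an unadjusted p-value.

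Each sample's size factor was the geometric mean of 6 housekeeping genes (Alas1, Gapdh, Oaz1, Polr1b, Sdha, Tbp). A gene counted as above background where at least 40% of samples (5 of 12) exceeded the mean plus 2 SD of the sample's negative controls, which kept 357 genes. BDS was tested against control by the quasi-likelihood test of edgeR 4.0.16 in R 4.3.3 without covariates, at a threshold of 0.05; limma 3.58.1 and DESeq2 1.42.0 served as alternatives, and the procedure was tested on simulated data. A standard error is the log2 fold change over the root of the F statistic. Sample numbers are not shared between groups, so nothing was paired. All 9 probe accessions matched the same symbol in RefSeq.

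All members were named, with listed genes at an unadjusted p under 0.05 (at most 3 a list; 1 is not reported here) and the 2 genes most like B2m, H2-K1, Psmb9 and Psmb10. The members and lists were chosen with earlier results of these data known. The ratios that need H2-T23, Psmb6 or Psmb8 were not run, as those genes were not analysed here.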

Additional observations from a re-analysis of the deposited data

Results flagged for a closer look

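In control 44, H2-K1 stood at 6455 housekeeping-scaled counts, far above the other 5 controls, and its log2 ratio to B2m of -0.11 was likewise far above theirs. These were 2 of 28 groups of 6 samples examined for a sample standing apart, where chance gives about 1 in 20, so the number flagged was near that share. Both flags hold the same H2-K1 count of control 44 and are not independent. No other gene or ratio of the group had such a sample.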

How the results depend on the processing

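No paired analysis was possible because the groups share no sample numbers. Across 25 alternatives 0 of the 8 genes reached an unadjusted p under 0.05 (DESeq2 with housekeeping factors gave H2-K1 none). In these the panel's unadjusted calls ranged from 8 to 87 genes lower and from 0 to 18 higher in BDS. Past the adjusted threshold the panel's calls ranged from 0 to 4 as each sample was left out (4 without BDS 7). The members' median ranged from -0.0034 to 0.089 over the same fits. The members' median, 0.045 on the log2 scale, was 0.14 with TMM scaling, 0.13 with TMM without control 44, -0.11 without BDS 21, BDS 25 and BDS 55, and -0.056 with TMM without those 3; the last and the TMM fit without control 44 were added after seeing the data. Signs turned as follows, none past the threshold; the cause was not tested. H2-K1 was 0.078 without control 44 and 0.16 with TMM as well. Without BDS 21, BDS 25 and BDS 55, B2m, Tapbp and Psmb10 were -0.13, -0.19 and -0.094 (-0.069, -0.13 and -0.039 with TMM). With the housekeeping factor as covariate B2m and Tapbp were -0.034 and -0.072. Psmb9 was 0.059 with TMM, 0.044 with DESeq2's own size factors and 0.013 with TMM without control 44. Leaving out single samples gave -0.0081 to 0.11 for B2m, -0.63 to 0.078 for H2-K1, -0.062 to 0.15 for Tap1 and -0.085 to 0.035 for Psmb9. Among ratios (exact permutation tests), H2-K1 over B2m ran from -0.42 to 0.039 as single samples were left out, Tap1 over Tapbp from -0.17 to 0.060 and Tap1 over Psmb9 from -0.056 to 0.18; without the 3 BDS samples Tap1 over Tapbp was 0.28, and with negative controls subtracted Tap1 over Psmb9 was -0.12. Psmb7 and Psmd7 kept their sign in all 25 alternatives. Counts near background limit Tap1 and Psmb5.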
